A study of Mus musculus with 6 samples.

Results

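The AP-1 transcription factor genes are described here in the mouse aorta at 2 ages. The 10 genes were taken by symbol from the 55335 genes of the count table: Fos, Fosb, Fosl1 and Fosl2, then Jun, Junb and Jund, then Atf3, Batf and Batf3. They are the Fos, Jun and ATF/BATF genes of the AP‐1 family that the study put forward, and the rule that takes them uses no measured value. Of the 10, 8 had enough counts to be tested between the ages.

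Aorta of wild-type C57BL/6 mice, male by the study's methods, was sequenced in bulk at 6 weeks (young mice) and at 6 months (aged mice), and the labels name no treatment or transgene in either group. There were 3 young and 3 aged libraries, each taken here as 1 mouse, and the totals ran from 31049632 to 45832185 counts. A bulk library averages over every cell of the vessel wall, so fewer cells of a type and less RNA per cell cannot be told apart in any value below. Levels within a gene are given as CPM (counts per 1000000 of the TMM-scaled library total), and levels between genes as FPKM, which also divides by gene length.

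AP-1 is a dimer. Fos and Jun proteins each carry a basic region that holds DNA and a leucine zipper that holds the partner. Fos proteins need a Jun partner, while Jun proteins can also pair among themselves or with ATF and BATF proteins. Fos, Jun, Junb, Fosb and Atf3 are immediate early genes: growth factors, stretch, injury and stress switch on their transcription within minutes through MAP kinases and through serum response factor (SRF), and their mRNAs decay quickly. In vessels they are known from injured or stimulated smooth muscle cells and from endothelial cells in disturbed flow.

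The libraries differed in several ways that touch these genes. Genes of the mitochondrial genome took 14.9 to 21.2% of the counts in young and 23.1 to 30.4% in aged libraries, with no overlap. Smooth muscle markers, led by Acta2 and Myh11, were the most abundant of all cell type lists in every library (summed level 32354 to 40283 CPM in young and 28083 to 33396 CPM in aged). Young replicate 1 held Xist at 306 CPM against at most 0.64 CPM in the other 5 libraries, and Ddx3y at 1.09 CPM against at least 44.8 CPM, which goes against the stated sex of that mouse. It also had the most striated muscle RNA (summed markers 295 CPM, against 44.1 to 64.4 CPM elsewhere). Values without it are given beside Junb, Atf3 and Batf.

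Over all 16612 tested genes, edgeR's quasi-likelihood test called 0% at an adjusted p of 0.05, with 1723 genes (10.4%) at an unadjusted p below 0.05 and 2744 genes (16.5%) whose young and aged libraries did not overlap. None of the 8 tested AP-1 genes was called. Of these 8 genes, 3 had an unadjusted p below 0.05, and the same 3 were those whose groups did not overlap. Junb was higher in each aged library than in any young one, as were 7.74% of all genes, and Atf3 was lower in each, as were 8.78% of all genes. Batf was also higher in each aged library, but it passed the filter on low counts only through the aged group, so its place among the 3 carries no weight. Over the 8 genes the log2 fold change was positive for 4 and negative for 4, with a median of 0.06 beside 0.02 over all genes tested. The signs were thus evenly divided within the family. With library sizes set by total counts, which shifted the median of all genes to −0.22, Jun and Jund turned negative and the division was 2 positive and 6 negative.

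To show promoter sequence of the genes that the results turn on, 150 bases before the RefSeq start (GRCm38.p6) are printed for Fos, Jun, Junb and Atf3. Fos and Jun shared their 3 highest libraries. Junb and Atf3 had young and aged libraries that did not overlap, in opposite directions, although edgeR called neither. Each sequence is read 5′ to 3′ on the strand of its gene and ends at the base before the start. The Atf3 start that RefSeq gives lies inside the longer span of the gene in GENCODE, so its bases belong to an internal start. Capitals mark matches, on either strand, to TGACG (the short core of the cyclic AMP response element), to TGACATCA (a variant of the AP-1 element known from the Jun promoter) and to TATAAA (the TATA box).
Fos, chr12:85473740-85473889, plus strand: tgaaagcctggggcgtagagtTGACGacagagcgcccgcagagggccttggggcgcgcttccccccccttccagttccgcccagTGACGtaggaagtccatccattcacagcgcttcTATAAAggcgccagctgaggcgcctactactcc
Jun, chr4:95052223-95052372, minus strand: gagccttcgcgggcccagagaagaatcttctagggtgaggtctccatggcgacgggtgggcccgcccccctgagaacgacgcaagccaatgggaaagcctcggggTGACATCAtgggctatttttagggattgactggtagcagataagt
Junb, chr8:84978749-84978898, minus strand: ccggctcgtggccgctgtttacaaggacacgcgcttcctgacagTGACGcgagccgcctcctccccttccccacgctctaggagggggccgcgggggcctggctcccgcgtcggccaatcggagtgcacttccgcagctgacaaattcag
Atf3, chr1:191183334-191183483, minus strand: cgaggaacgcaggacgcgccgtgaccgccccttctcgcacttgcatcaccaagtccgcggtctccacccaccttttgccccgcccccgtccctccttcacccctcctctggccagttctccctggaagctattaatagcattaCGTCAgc

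The search ran over the whole window of each promoter entry, 250 bases before to 50 after the start. Of the 10 genes, 9 had an entry, Fosl1 being the exception. TGACG was found in 5 of these 9 (Fos, Fosb, Junb, Atf3 and Batf), beside 20.8% of all 32851 promoter entries. TGACATCA was found in Jun alone of the 9, beside 3.62% of all entries, and TATAAA in Fos and Junb, beside 13.6%. The Junb match to TATAAA begins at the RefSeq start itself and so lies outside the printed bases. GENCODE starts Junb further downstream, at 84978718, and the match lies before that start. The full cyclic AMP element TGACGTCA (1.79% of entries), the full AP-1 element TGACTCA (5.2%) and the CArG box that SRF binds (1.63%) were in none of the 9. TGACGTCA includes TGACG and would have been counted under both. These are matches of letters in a short window and say nothing of what binds there or further away.

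**Figure D1:**
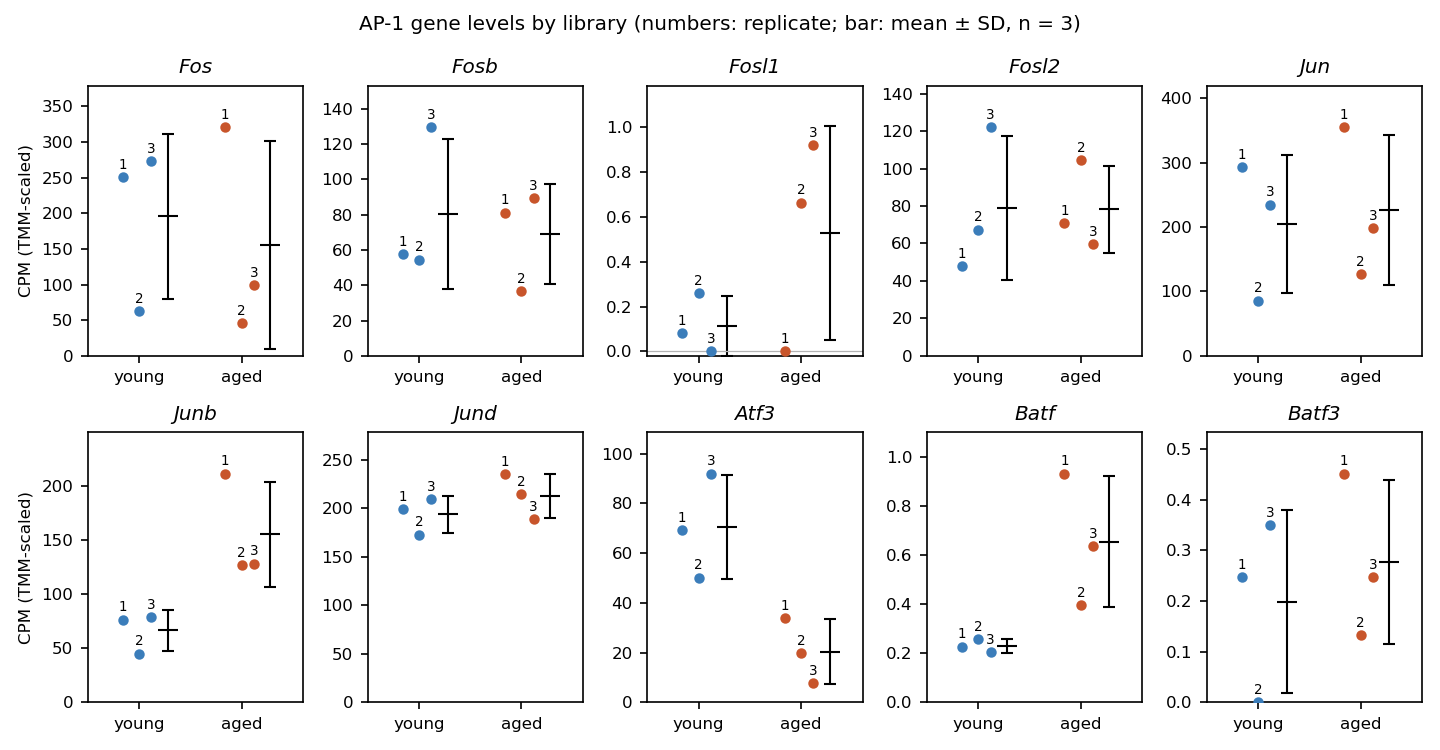
Level of each AP-1 gene in CPM on TMM-scaled library sizes (vertical axis, linear, with its own range for each gene) in the 3 young (blue) and 3 aged (orange) libraries, with the replicate number beside each point and the mean ± SD (n = 3) as a black bar. Junb and Batf separate upward and Atf3 downward, while Fos and Jun spread widely inside each group and Jund hardly spreads at all.

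Fos (chr12:85473890-85477273, plus strand of GRCm38, 4 exons, ENSMUSG00000021250) encodes the founding Fos protein, which binds DNA only with a Jun partner. Its level was 251, 62.9 and 273 CPM in young replicates 1 to 3 and 321, 45.7 and 99.2 CPM in aged replicates 1 to 3. Each group therefore held at least 1 library at high and 1 at low level, and the young range lay inside the aged range. The highest library exceeded the lowest 7.02-fold. The mean was 196 ± 116 CPM in young and 155 ± 146 CPM in aged mice (SD, n = 3 each), and the log2 fold change of −0.34 (SE 0.77, adjusted p = 0.893 in edgeR's quasi-likelihood test) had a 95% interval from −2.14 to 1.47. Changes of more than 2-fold in either direction lie inside that interval, so a difference between the ages was not detectable with 3 libraries a group. The sign itself turned to positive (0.10) without aged replicate 2.

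Fosb (chr7:19302696-19310051, minus strand, 4 exons) encodes the Fos protein best known from lasting stimulation, where a short splice form accumulates. It stood at 57.8, 54.5 and 130 CPM in young and 81.1, 36.5 and 89.5 CPM in aged libraries. Young replicate 3 was highest and aged replicate 2 lowest, with the rest of the libraries mixed between them. The log2 fold change was −0.22 (SE 0.44, 95% interval −1.26 to 0.81, edgeR adjusted p = 0.874), and it became positive (0.31) without young replicate 3 and (0.08) without aged replicate 2.

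Fosl2 (chr5:32135801-32157842, plus strand, 4 exons) encodes Fra-2, a Fos protein that lacks the strong activating end of Fos and is made later after a stimulus. Its level was 47.8, 67.4 and 122 CPM in young and 70.9, 104 and 59.6 CPM in aged libraries. The groups lay on top of each other, with a log2 fold change of −0.01 (SE 0.37, 95% interval −0.88 to 0.85, edgeR adjusted p = 0.992). Aged replicate 2, which was lowest of all libraries for Fos and Fosb, was the second highest for Fosl2. With 1 library left out the log2 fold change lay between −0.28 and 0.45.

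Fosl1 (chr19:5447547-5455946, plus strand, 4 exons) encodes Fra-1, the close relative of Fra-2. It had 4, 9 and 0 counts in the young and 0, 25 and 26 counts in the aged libraries, and was not tested because only 2 libraries reached the filter's level of 0.298 CPM on unscaled totals. A count of 0 allows up to 0.0874 CPM in young replicate 3 and 0.0903 CPM in aged replicate 1 (3 counts, counting error only). Both libraries with more than 10 counts were aged, and the third aged library had none. Over 2767 bases Fosl1 overlaps Ccdc85b on the other strand, which had 1123 to 1721 counts. Whether counting used strand is not given in the sources used here, so these few reads cannot be assigned firmly.

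Jun (chr4:95049034-95052222, minus strand, a single exon) encodes c-Jun, the strongest activator of the Jun proteins. It stood at 293, 85.6 and 234 CPM in young and 355, 126 and 198 CPM in aged libraries. As for Fos, aged replicate 1, young replicate 1 and young replicate 3 held the 3 highest values, and young replicate 2 and aged replicate 2 the 2 lowest. The log2 fold change was 0.15 (SE 0.51, 95% interval −1.05 to 1.35, edgeR adjusted p = 0.934), and its sign turned to −0.34 without aged replicate 1, to −0.21 without young replicate 2 and to −0.08 with library sizes set by total counts. The antisense gene Junos overlaps Jun over 689 bases and had 12 to 40 counts.

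Junb (chr8:84974484-84978718, minus strand, a single exon) encodes a Jun protein with a weaker activating end, which can hold c-Jun back and which restrains growth in several cell types. Its level was 76.5, 45.0 and 78.5 CPM in young and 211, 127 and 128 CPM in aged libraries. Each aged library lay above the highest young library, and aged replicate 1 stood clear of the other two. The mean was 66.7 ± 18.8 CPM in young and 155 ± 48.4 CPM in aged mice (SD, n = 3 each), a fitted 2.33-fold difference (log2 fold change 1.22, SE 0.30, 95% interval 0.52 to 1.92), yet Junb was not called over all genes (edgeR adjusted p = 0.377). DESeq2, which called 2.26% of its 14955 genes with an adjusted p, called Junb at an adjusted p of 0.0131. The log2 fold change was 1.335 without young replicate 1 and at its smallest 0.93 without aged replicate 1. At its far end Junb overlaps Prdx2 on the other strand over 351 bases, and Prdx2 had 87.7, 71.5 and 66.0 CPM in young and 118, 90.8 and 86.6 CPM in aged libraries. It was thus highest in aged replicate 1, as was Junb, and its groups overlapped only between young replicate 1 and aged replicate 3. Whether reads of the shared bases were counted for either gene was not tested.

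Jund (chr8:70698949-70700616, plus strand, a single exon) encodes the Jun protein that is present in resting cells and reacts little to stimulation. It had 199, 173 and 209 CPM in young and 235, 214 and 189 CPM in aged libraries, with only 1.36-fold between the highest and the lowest library. This was the narrowest spread of the 8 tested genes, and the groups overlapped. The log2 fold change was 0.14 (SE 0.16, 95% interval −0.24 to 0.51, edgeR adjusted p = 0.78), so changes of more than 2-fold in either direction lie outside the interval. Under total-count library sizes it was −0.10. The small antisense gene Gm11175 lies within Jund over 919 bases and had 3 to 15 counts.

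Atf3 (chr1:191170296-191218039, minus strand, 4 exons) encodes a stress-induced factor that represses transcription as a pair of its own and can activate with Jun proteins. It stood at 69.2, 50.2 and 92.0 CPM in young and 33.8, 19.7 and 7.75 CPM in aged libraries. Each aged library lay below the lowest young one, and aged replicate 3 was lowest by far, so that the highest library exceeded it 11.9-fold. The mean was 70.5 ± 20.9 CPM in young and 20.4 ± 13.0 CPM in aged mice (SD, n = 3 each). The fitted level in young mice was 3.45 times that in aged mice (log2 fold change −1.79, SE 0.50, 95% interval −2.97 to −0.61), and Atf3 was not called by edgeR (adjusted p = 0.377) but was by DESeq2 (adjusted p = 0.0176). The log2 fold change was −1.79 without young replicate 1 and −1.40 without aged replicate 3. Fos and Jun, which stress switches on together with Atf3, did not share its separation by age. In aged replicate 1 both were at their highest while Atf3 was below every young library. Within each age the patterns were partly alike. Atf3, Fos and Jun were each lowest in replicate 2 among the young and highest in replicate 1 among the aged libraries. The lowest aged library was replicate 3 for Atf3 and replicate 2 for Fos and Jun.

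Batf (chr12:85686669-85709087, plus strand, 3 exons) encodes a small factor of lymphoid and myeloid cells that has no activating end and takes the place of Fos beside Jun proteins. It had 11, 9 and 7 counts (0.227, 0.259 and 0.204 CPM) in young and 31, 15 and 18 counts (0.933, 0.398 and 0.637 CPM) in aged libraries. The aged libraries were all higher, but all 6 values rest on at most 31 counts. The log2 fold change was 1.497 (SE 0.58, 95% interval 0.12 to 2.87, edgeR adjusted p = 0.449), and it was 1.49 without young replicate 1. Batf reached the filter's level in the 3 aged libraries and in none of the young ones, so it entered the test only through the group in which it was higher.

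Batf3 (chr1:191097847-191108945, plus strand, 4 exons) encodes a relative of Batf that cross-presenting dendritic cells need. It had 12, 0 and 12 counts in young and 15, 5 and 7 counts in aged libraries, and only 1 library of each age reached the filter's level. The count of 0 in young replicate 2 allows up to 0.0862 CPM (3 counts, counting error only). Batf3 was not tested, and the counts of the groups overlapped.

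**Figure D2:**
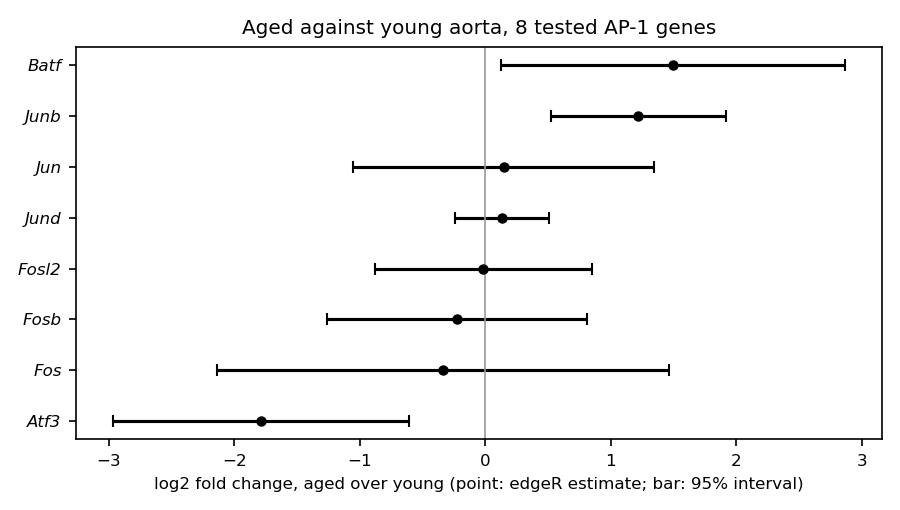
Log2 fold change of aged over young mice (horizontal axis) for the 8 tested AP-1 genes, ordered by estimate, as edgeR gave it (point) with its 95% interval (bar). The intervals of Batf, Junb and Atf3 leave out 0 before adjustment over all genes, Jund has the narrowest interval and Fos the widest.

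Per length, the order of levels over both ages was led by Jund, at a mean of 110 FPKM over the 6 libraries (SD 12.3, range 91.2 to 125). Fos followed at 68.4 ± 47.5 FPKM, Jun at 60.8 ± 28.4 FPKM, Junb at 42.4 ± 20.1 FPKM, Atf3 at 20.002 ± 14.9 FPKM, Fosb at 10.9 ± 5.32 FPKM and Fosl2 at 7.40 ± 2.999 FPKM (SD, n = 6). The other three, Batf, Fosl1 and Batf3, stood at 0.252, 0.128 and 0.121 FPKM. Jund exceeded Fos in 6 of 6 libraries. Fos and Jun had no fixed order, since Fos exceeded Jun in 3 of 6 libraries, and Jun exceeded Junb in 5 of 6. Junb exceeded Atf3 in 4 of 6, Atf3 exceeded Fosb in 5 of 6 and Fosb exceeded Fosl2 in 5 of 6, and in each of these neighbouring pairs the means lay closer than the larger SD over libraries or the ranges met. The order of Junb and Atf3 by mean was not the same in young and aged mice. In young mice Atf3 (32.0 ± 9.99 FPKM) and Junb (28.2 ± 7.98 FPKM) differed by less than their SD. In aged mice Junb stood at 56.6 ± 18.6 FPKM, beside Jun at 59.5 ± 31.5 and Fos at 55.6 ± 53.2 FPKM, and Atf3 at 8.02 ± 5.24 FPKM lay among Fosb (9.19 ± 3.64) and Fosl2 (6.79 ± 2.18) (SD, n = 3 each). By library, Atf3 exceeded Junb in young replicates 2 and 3, and fell behind Fosb and Fosl2 in aged replicate 3. Batf, Fosl1 and Batf3 exchanged places from library to library. Every library thus held mRNA of Fos, Fosb, Fosl2 and all 3 Jun genes, and little of the BATF genes.

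Of the Jun genes, only Junb had shares that did not overlap between the ages. Junb accounted for 13.6, 13.0 and 14.6% of the summed FPKM of Jun, Junb and Jund in young replicates 1 to 3 and for 26.7, 24.7 and 24.1% in aged replicates 1 to 3. The spread within each group was small (13.8 ± 0.82% and 25.1 ± 1.37%, SD, n = 3 each), although the level of Junb in CPM varied much more between libraries of a group. The share does not depend on how libraries are scaled. Jun took 17.8 to 37.6% and Jund 41.0 to 69.1%, and both ranges overlapped between the ages. Since Junb was among the genes whose groups did not overlap, its share is the same observation in another form and not a second one.

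Among the Fos genes, Fos took 88.3, 62.9 and 77.7% of the summed FPKM in young and 87.1, 53.4 and 66.9% in aged libraries. Aged replicate 2 had the lowest share of Fos and the highest share of Fosl2 (29.6%, against 4.07% in young replicate 1). The sum over the Fos genes ran from 41.6 to 149 FPKM in young and from 31.0 to 134 FPKM in aged libraries. Atf3 made up 8.09, 10.8 and 10.04% of the summed FPKM of all 10 genes in young and 3.04, 3.41 and 1.21% in aged libraries. The summed FPKM of all 10 was 378, 211 and 424 in young and 440, 229 and 240 in aged libraries, so the total varied within each group about as far as it varied overall.

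**Figure D3:**
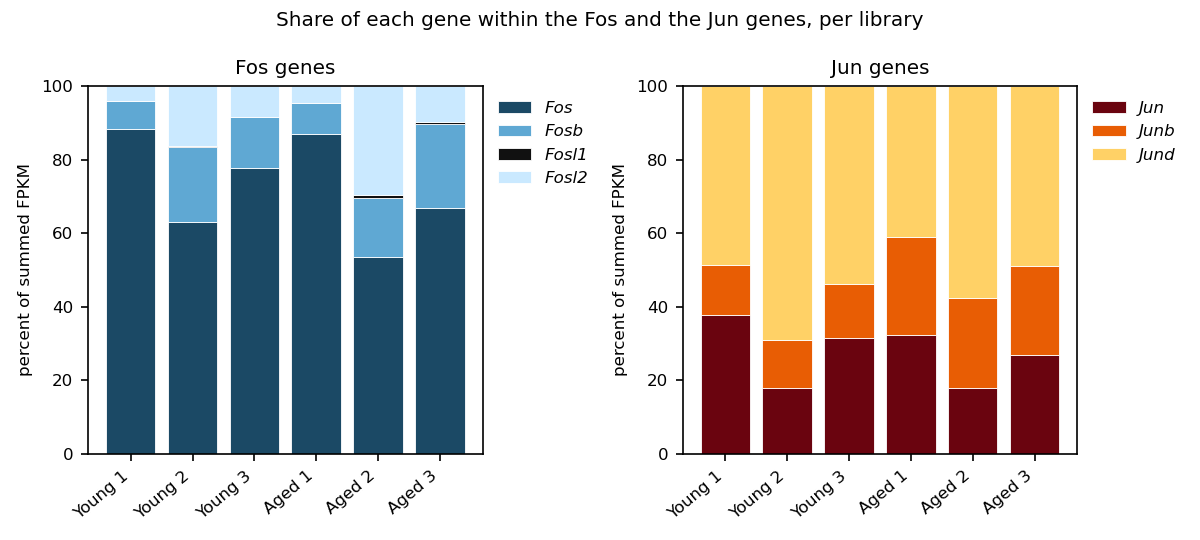
Percent of the summed FPKM (vertical axis) of the 4 Fos genes (left) and of the 3 Jun genes (right) that each gene took in the 6 libraries (horizontal axis). Junb (orange) fills 13.0 to 14.6% of the Jun bars in young and 24.1 to 26.7% in aged libraries, while the share of Fos (dark blue) falls to its lowest, 53.4%, in aged replicate 2.

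How alike the genes were across the 6 libraries was measured as the root mean square difference of log2 CPM, each gene centred on its own mean, where 0 is an identical pattern. Junb and Batf were the closest pair (0.38), Fosl2 and Jund came next (0.43), and Fos and Jun followed (0.56). Atf3 and Batf were the farthest apart (1.76), then Atf3 and Junb (1.67). Batf had at most 31 counts in a library and passed the filter only through the aged group, so its pairs carry no weight. Without Batf, Fosl2 and Jund were the closest pair and Atf3 and Junb the farthest apart. A steady gene such as Jund is close to any gene of modest spread, so this value describes a pattern and not a link. Of the 10 genes, 6 had their highest library in aged replicate 1 and 3 in young replicate 3. None had its highest level in young replicate 2, which was lowest for 3 of the 8 tested genes.

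The genes outside the family nearest to Fos were Uvrag, an autophagy gene (0.18), Tnfsf9 (0.32) and the small nucleolar RNA Snora24 (0.40). Nearest to Jun were C130050O18Rik (0.14), Lilr4b (0.18) and Tnfsf13 (0.25). Nearest to Junb were the sodium-proton exchanger gene Slc9a9 (0.18), Ggt5 (0.21) and Vwc2 (0.21). Nearest to Atf3 were Gm42901 (0.25), the cartilage collagen gene Col9a1 (0.31) and Dusp27 (0.33). They are the nearest of 16612 genes over only 6 libraries, and several of them had few counts.

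The libraries in which Fos was high were young replicate 1, young replicate 3 and aged replicate 1. Jun had the same 3 highest libraries, alone among the 7 other tested AP-1 genes. So did 8 of 29 other immediate early genes (27.6%) and 5 of 19 genes of feedback phosphatases and mRNA decay factors (26.3%), beside 4.88% of all genes tested and none of 27 AP-1 target genes known from the literature. The 8 immediate early genes were Btg1, Ctgf, Cyr61, Egr1, Ier5, Klf6, Nr4a1 and Zfp36, which were named after their values had been seen. Zfp36 is counted in the feedback list as well. The pattern was not confined to these 2 lists. Striated muscle markers had the largest share (3 of 8, 37.5%). Schwann cell markers (1 of 6, 16.7%) and upstream kinases (3 of 25, 12%) also lay above the share of all genes. Cyr61, a matrix signal that SRF and YAP switch on, ran from 678, 98.8 and 474 CPM in young to 341, 40.6 and 67.1 CPM in aged libraries, a 16.7-fold swing. Dusp1, the phosphatase that turns MAP kinases off, had 451, 175 and 438 CPM in young and 351, 211 and 255 CPM in aged libraries, again highest in the same 3.

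**Figure D4:**
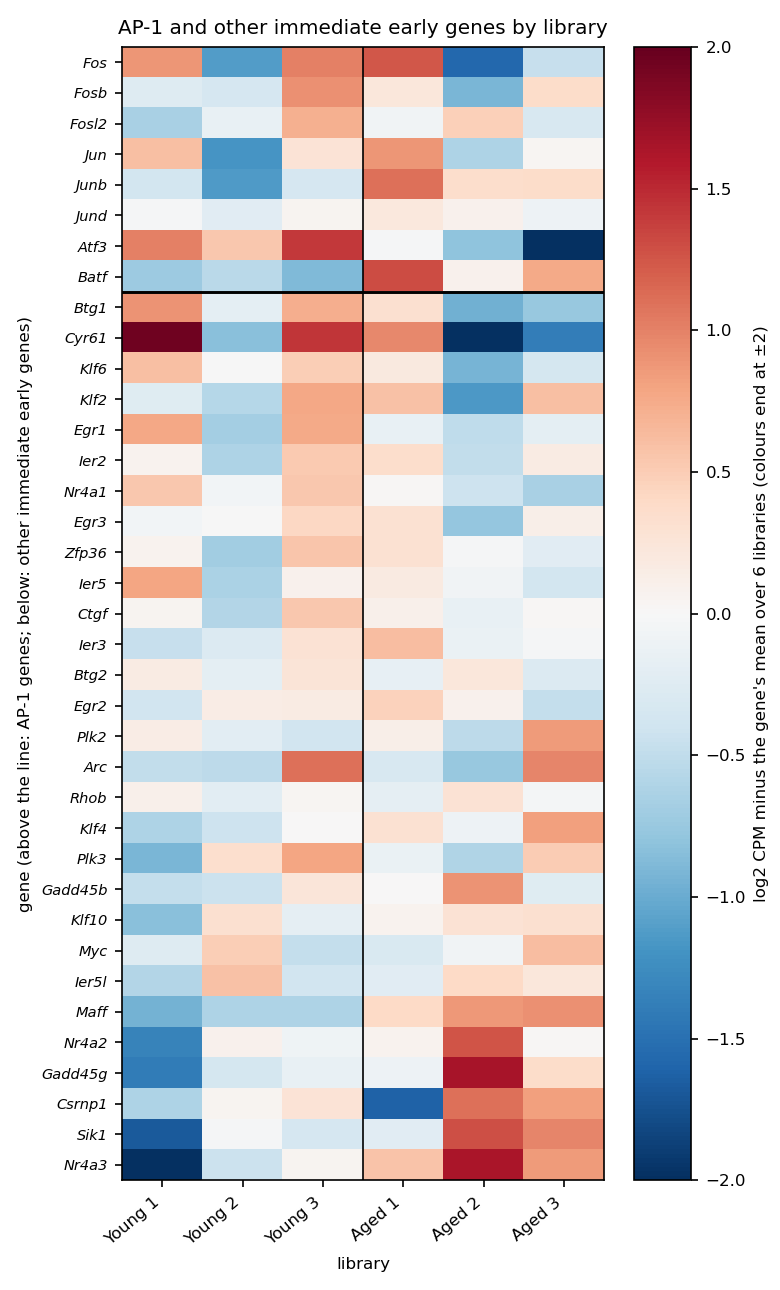
Log2 CPM minus the mean of the gene over the 6 libraries (colour, ending at ±2) for the 8 tested AP-1 genes (above the line) and 29 other immediate early genes (below it), ordered from most to least like Fos. Fos, Jun and the top 3 genes of the lower block (Btg1, Cyr61 and Klf6) are high in young 1, young 3 and aged 1. Klf2, next in order, is high in young 3, aged 1 and aged 3. Nr4a3 at the bottom and Maff, some rows above it, are lowest in young and higher in aged libraries.

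Of the 29 other immediate early genes tested, 16 had a positive and 13 a negative log2 fold change (median 0.08; 11 and 18 under total-count library sizes). By edgeR none was called, and 5 were higher and 1 was lower in aged mice at an unadjusted p below 0.05, beside 5.56% and 4.82% of all genes. DESeq2 called 1, Maff, beside 2.26% of its genes with an adjusted p. Maff, a small Maf protein without an activating end, had 12.9, 16.2 and 16.3 CPM in young and 32.8, 45.4 and 47.0 CPM in aged libraries (log2 fold change 1.47, SE 0.20, edgeR adjusted p = 0.208, DESeq2 adjusted p = 2.76e-06). The NR4A nuclear receptors differed in sign: Nr4a1 had a log2 fold change of −0.69 (SE 0.25), Nr4a2 of 0.89 (SE 0.46) and Nr4a3 of 1.73 (SE 0.63). Ctgf was the most abundant of the list, at 805 to 1765 CPM in young and 1086 to 1303 CPM in aged libraries. The sign of the fold change thus differed between genes that the same stimuli switch on, as it did between Junb and Atf3.

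Of the other bZIP genes, whose proteins pair with or compete with AP-1 proteins, 24 of 26 were tested, 15 had a positive and 9 a negative fold change (median 0.15; 11 and 13 under total-count library sizes), and edgeR called none. DESeq2 called 2, Maff and Atf5, beside 2.26% of its genes with an adjusted p. Beside Maff, Atf5 was higher in each aged library than in any young one, at 93.5, 87.7 and 83.1 CPM in young and 164, 123 and 147 CPM in aged mice (log2 fold change 0.71, SE 0.16, edgeR adjusted p = 0.372, DESeq2 adjusted p = 0.0146). The most abundant were Nfe2l1 and Atf4, the latter at 99.3 to 133 CPM in young and 125 to 136 CPM in aged libraries.

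Upstream of the AP-1 genes, 14 of 25 tested kinases of the MAP kinase cascades had a positive and 11 a negative fold change (median 0.12; 8 and 17 under total-count library sizes), with none called by edgeR or DESeq2. Mapk3, which encodes an ERK kinase, had a log2 fold change of 0.30 (SE 0.21, edgeR adjusted p = 0.642). The 3 kinases with the smallest unadjusted p were Rps6ka1 (log2 fold change 0.95, SE 0.34), Mapk13 (2.08, SE 0.76, at most 3.999 CPM) and Map3k1 (−0.55, SE 0.23). Of SRF and its cofactors, 2 of 7 had a positive and 5 a negative fold change (median −0.23), with none called by edgeR. DESeq2 called 1, Srf, beside 2.26% of its genes with an adjusted p. Srf itself was lower in each aged library, at 49.8, 52.6 and 60.5 CPM in young and 33.6, 26.8 and 36.4 CPM in aged mice (log2 fold change −0.75, SE 0.17, edgeR adjusted p = 0.372, DESeq2 adjusted p = 0.0294). Myocd, the SRF partner of smooth muscle cells, had a log2 fold change of −1.10 (SE 0.44) with overlapping groups, and Elk4, an ETS partner, one of 0.39 (SE 0.14).

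Downstream of MAP kinases, 8 of 19 feedback genes had a positive and 11 a negative fold change (median −0.03; 3 and 16 under total-count library sizes), again with none called by edgeR or DESeq2. The 3 with the smallest unadjusted p were Dusp5 (log2 fold change −0.89, SE 0.32), Dusp10 (−0.94, SE 0.38) and Spred1 (0.39, SE 0.16). Dusp1 and Zfp36, whose protein speeds the decay of short-lived mRNAs, were the most abundant, with log2 fold changes of −0.38 (SE 0.38) and −0.03 (SE 0.31).

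The AP-1 target genes known from the literature had mostly positive fold changes: 22 of 27 tested had a positive fold change, beside 52.1% of all genes tested, with a median of 0.48 beside 0.02. Under total-count library sizes 17 of 27 were positive (median 0.24, beside −0.22 over all genes). The list was chosen with earlier results of these data known, so these counts are a description only. Of the 27, 6 were higher and 2 were lower at an unadjusted p below 0.05, beside 5.56% and 4.82% of all genes. By edgeR none was called with all 6 libraries and 3 without aged replicate 2 (Ccnd1, Timp1 and Hmox1), where 0.642% of all genes were called. DESeq2 called these 3 and Mmp3, beside 2.26% of its genes with an adjusted p. Hmox1, the haem oxygenase of oxidative stress, had 6.03, 5.78 and 6.498 CPM in young and 15.7, 19.0 and 23.5 CPM in aged libraries (log2 fold change 1.67, SE 0.21, edgeR adjusted p = 0.189). Ccnd1, the cyclin of early cell cycle entry, had 8.61, 11.0 and 11.0 CPM in young and 49.3, 23.8 and 45.2 CPM in aged libraries (log2 fold change 1.95, SE 0.29, edgeR adjusted p = 0.259). Mmp3, a matrix protease made by fibroblasts, had 24.1, 13.2 and 34.8 CPM in young and 313, 30.7 and 125 CPM in aged libraries, so aged replicate 2 lay among the young. Tnc, an abundant gene of the list, had a log2 fold change of −0.87 (SE 0.34). Many of these targets also answer to other factors, and fibroblast and macrophage markers stood at the levels given next.

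Some cell type markers also stood at different levels in young and aged libraries. With all 6 libraries edgeR called no macrophage or fibroblast marker, and over all genes DESeq2 called 2.26% of those with an adjusted p. All 8 macrophage markers, led by Lyz2 and C1qa, were higher in aged mice at an unadjusted p below 0.05, beside 5.56% of all genes, and DESeq2 called 5 of them. Their summed level was 95.9 to 129 CPM in young and 435, 136 and 288 CPM in aged replicates 1 to 3. All 8 fibroblast markers, led by Gsn and Col1a1, had a positive fold change (7 of 8 under total-count library sizes), and DESeq2 called 2 of them, with sums of 3617 to 4386 CPM in young and 10464, 3094 and 8317 CPM in aged replicates 1 to 3. Among the aged libraries the macrophage sum was highest in aged replicate 1 and lowest in aged replicate 2, as was the level of Batf, and Junb was also highest in aged replicate 1. In aged replicate 2 the fibroblast sum was below that of every young library, the macrophage sum was 136 CPM and Junb stood at 127 CPM. The part of these cells in the levels of Junb, Batf and the target genes was not tested.

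Smooth muscle markers had a negative fold change for 8 of 8 genes (median −0.32), 4 of them at an unadjusted p below 0.05 beside 4.82% of all genes, with overlapping sums as given above. Endothelial markers, led by Pecam1 and Vwf, summed to 458 to 548 CPM in young and to 434, 395 and 1689 CPM in aged replicates 1 to 3, so aged replicate 3, the library with the lowest Atf3, stood apart. White adipocyte markers, led by Fabp4 and Lpl, were highest in aged replicate 2 (2495 CPM) and young replicate 2 (1957 CPM), the libraries with the lowest Fos, against 544 to 1205 CPM in the rest. Brown adipocyte markers, led by Ucp1 and Cidea, followed in the same order (1915 and 621 CPM, against 133 to 292 CPM). The part of fat in the low Fos levels was not tested. Markers of T cells and dendritic cells, which use Batf and Batf3, were low: T cell markers (Lck and Cd2 highest) summed to 1.61 to 8.22 CPM and dendritic cell markers to 16.8 to 27.3 CPM, led by Zbtb46 and Irf8. Neutrophil markers (S100a9 and Csf3r highest) summed to 0.475 to 1.57 CPM in young and 2.35 to 4.28 CPM in aged libraries, without overlap, and Ly6g was at 0 in all libraries. Schwann cell (Pmp22, Prx), mesothelial (Upk3b, Msln) and erythroid (Hbb-bs, Hba-a1) markers had overlapping sums, the lowest and highest over all libraries being 74.9 and 230.3 CPM, 1.72 and 68.3 CPM, and 391 and 877 CPM.

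Heat shock genes, which handling and warm tissue switch on, were examined because AP-1 genes answer to the same insults. Of 13 tested, 11 had a positive fold change (median 0.25) and edgeR called none. Of these 13, 3 were higher in aged mice at an unadjusted p below 0.05, beside 5.56% of all genes. The count with a positive fold change fell to 8 of 13 with total-count library sizes and to 7 of 13 (median 0.01) without aged replicate 2. Hspb1 had 124, 126 and 152 CPM in young and 178, 390 and 315 CPM in aged libraries (log2 fold change 1.14, SE 0.29, edgeR adjusted p = 0.377). It was the 1 gene of the list that DESeq2 called (adjusted p = 0.0238), beside 2.26% of its genes with an adjusted p. Hsp90aa1 and Dnaja1 had log2 fold changes of 0.47 (SE 0.17) and 0.52 (SE 0.21), and the abundant Hsp90ab1 and Hspa8 of 0.26 (SE 0.19) and 0.25 (SE 0.21). Hspb1 was highest in aged replicate 2, where Fos was lowest, whereas Dnajb1, named after its values had been seen, had the same 3 highest libraries as Fos, as 1 of the 13 genes (7.69%). Their part in the AP-1 levels was not tested.

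**Figure D5:**
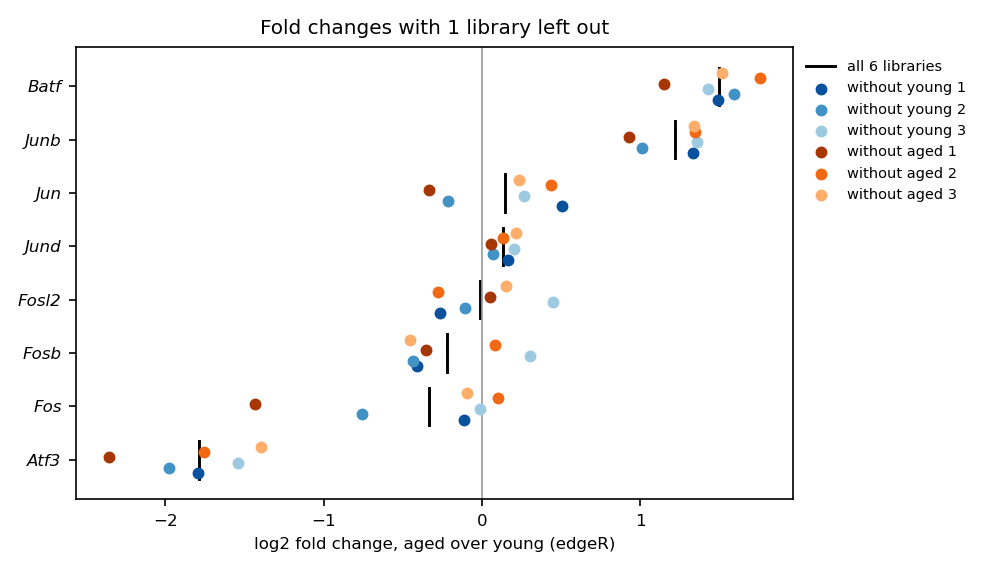
Log2 fold change of aged over young mice (horizontal axis, edgeR) for the 8 tested AP-1 genes with all 6 libraries (black line) and with each library left out in turn (points). Junb and Batf stay above 0.9 and Atf3 stays below −1.3, whereas Fos, Fosb, Fosl2 and Jun cross 0.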

How the data were processed

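Per the labels and the study's methods, aorta RNA in 6 libraries was sequenced in single-end runs. The methods describe vessel taken from each mouse, and whether mice were pooled for a library is not stated. The authors deposited raw counts per gene and FPKM values per gene, named mm10 as the build in their processing notes, and the aligner, counting tool, annotation and strand setting are not given in the sources used here. Counts were tested in edgeR 4.0.16 (R 4.3.3): filterByExpr by group (minimum count 10, minimum total 15), TMM, quasi-likelihood test, Benjamini-Hochberg over all 16612 genes kept, threshold 0.05. Each SE is that of the fitted log2 fold change. Replicates were taken to be separate mice. FPKM served only for levels between genes and, as log2(FPKM + 1) or log2(FPKM + 0.1), for limma 3.58.1. DESeq2 1.42.0, other scalings and filters, a replicate block and leaving out each library were the alternatives. Gene positions came from GENCODE M21 (GRCm38), where 55154 of 55335 gene IDs were found, and promoters from RefSeq. No 2 libraries of the same age agreed within counting noise. The scripts were tested on simulated data.

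The 10 genes and all lists were chosen with earlier results of these data known. Genes named beside the 10 were, in each pathway or stress list, the 3 of smallest p and the 2 of highest level, in each cell type list the 2 of highest level, and the 3 nearest in pattern to Fos, Jun, Junb and Atf3, with sex-linked genes as a check of the libraries. A few genes that this rule names are not reported here.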

Additional observations from a re-analysis of the deposited data

How the results depend on the processing

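No AP-1 gene was called by edgeR or limma under any alternative that was run, and DESeq2 called 2 (Junb and Atf3). Over all genes, DESeq2 called 338 (221 higher and 117 lower in aged mice) and edgeR without aged replicate 2 called 110, and the range with 1 library left out was 0 to 110. Without aged replicate 2, 100 of the 110 were higher and 10 lower. Genes of the pathway lists called were 7 with DESeq2 and 0 to 3 with 1 library left out, the 3 being Ccnd1, Timp1 and Hmox1 without aged replicate 2. Batf had an adjusted p of NA in DESeq2 and no value where at least 10 counts were required in every library.

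The median over all genes tested lay at −0.22 (log2 scale) with library sizes by total counts, and with limma on FPKM at −0.12 (pseudocount 1) and −0.19 (pseudocount 0.1). Under these 3 settings Jun turned to −0.0781, −0.0240 and −0.0227 and Jund to −0.0980, −0.0849 and −0.0856, each above that shift. With 1 library left out, log2 fold changes ranged from −1.44 to 0.10 for Fos, −0.45 to 0.31 for Fosb, −0.28 to 0.45 for Fosl2, −0.34 to 0.51 for Jun, 0.93 to 1.36 for Junb, 0.06 to 0.22 for Jund, −2.36 to −1.40 for Atf3 and 1.15 to 1.76 for Batf. Batf fell to 0.26 in limma on log2(FPKM + 1), where the pseudocount exceeds its level.

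Young and aged mice share replicate numbers that no label explains. The deviations of same-numbered libraries correlated at 0.0786, 0.117 and 0.0957, and each young library matched its own number best. These values cannot tell whether the numbers pair the mice. The main fit, which gave the intervals above, did not use them as pairs. With a replicate block, Fosl2 turned to 0.0676, 0 AP-1 genes and 0 genes in all were called, and 1782 genes had an unadjusted p below 0.05. The block lowered the SE from 0.77 to 0.37 for Fos, from 0.51 to 0.199 for Jun and from 0.44 to 0.26 for Fosb. It also lowered that of Junb (0.297 to 0.211), hardly moved that of Jund and raised those of Fosl2, Atf3 and Batf. For Fos and Jun, replicate 1 was high and replicate 2 low at both ages (Fos 251 and 321, then 62.9 and 45.7 CPM). Replicate 3 of Fos differed more (273 in young and 99.2 CPM in aged). The cause of these changes was not tested. With 3 libraries a group and no block, differences of the size seen for Fos and Jun between libraries of one age cannot be resolved. Neither gene was called with the block.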

Other observations

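The following values were picked after they had been seen. Map2k7, the kinase above JNK, is listed under 2 gene IDs. The first had 951, 658 and 721 counts in young and 665, 265 and 293 counts in aged libraries, and the second had 7, 22 and 0 counts in young and 4, 250 and 153 counts in aged libraries, so the second gained where the first was low. Creb1, whose protein binds cyclic AMP elements, had 42.8, 3.71 and 40.7 CPM in young and 38.9, 9.09 and 34.6 CPM in aged libraries. It was lowest in the same 2 libraries as Fos, and a link between them was not tested. Nfe2l1 had 47.6, 227 and 258 CPM in young and 222, 42.8 and 82.4 CPM in aged libraries, high in young replicate 3 and aged replicate 1 and lowest in aged replicate 2 as for Fos, but with young replicates 1 and 2 the other way round.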
